A study of Mus musculus with 20 samples.

Results

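The imprinted fetal growth genes described here are 10 genes, H19, Igf2, Dlk1, Meg3, Rian, Mirg, Peg3, Plagl1, Cdkn1c and Grb10. They were chosen by symbol, as genes that are expressed from the copy of 1 parent and act on fetal growth, with earlier results of these data known. All 10 were found among the 50559 gene rows of both count tables. RNA sequencing had been performed on 20 mouse liver samples in 4 groups of 5, namely liver and the tumors Aldafermin+MYC, FGF19+MYC and sgTrp53+MYC, and each gene was compared across these groups. The question was how strongly each gene differed between tumor and liver, and whether the tumors driven by different partners of MYC differed from each other.

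All mice were female C57BL/6J animals, 6 to 8 weeks old at injection, and carried no germline transgene. Tumors were induced by hydrodynamic gene transfer, a rapid injection of plasmids into the tail vein that reaches a minority of hepatocytes, with the Sleeping Beauty transposase to insert the plasmids. Every tumor group received MYC under the EF1a promoter. The FGF19+MYC group also received human FGF19, an intestinal hormone that restrains bile acid synthesis. The Aldafermin+MYC group received instead an engineered analog of FGF19 with a short deletion and substitutions at its N-terminus. The sgTrp53+MYC group received a CRISPR plasmid with a guide against Trp53 and no hormone. Each tumor was an individual nodule and the tumors came from different mice. Livers were collected at signs of tumors or at set endpoints. The time from injection is not stated for the sgTrp53+MYC tumors or the control livers, so age at sampling may differ between groups. Livers were labelled as healthy and non treated, whereas the study's methods describe control mice injected with a plasmid for a red fluorescent protein, so the handling of these 5 livers is given differently in these sources.

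Imprinted genes carry methylation marks laid down in the egg or sperm, so that only the maternal or the paternal copy is transcribed. Several lie in clusters: Igf2, a growth factor made from the paternal copy, neighbours H19, a maternal non-coding RNA that shares its enhancers, and Dlk1, a paternal transmembrane protein of progenitor cells, neighbours the maternal non-coding RNAs Meg3, Rian and Mirg, which host small RNAs. Many of these genes are highly active in the fetal liver and are silenced after birth, and their return is a known feature of liver tumors.

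On the mouse assembly GRCm39, the build of the counted reads, GENCODE places the H19 gene at chr7:142129262-142133957 and Igf2 at chr7:142204503-142220694, both on the minus strand, with their starts 86.7 kb apart. Cdkn1c, at chr7:143012069-143014806 on the same strand, starts 881 kb from H19. Dlk1 (chr12:109418749-109429262), Meg3 (chr12:109506877-109538165), Rian (chr12:109570242-109628150) and Mirg (chr12:109696198-109715898) follow one another on the plus strand of chromosome 12, and Meg3, Rian and Mirg start 88.1, 151 and 277 kb from the start of Dlk1. Peg3 (chr7:6706882-6733468, minus strand), Plagl1 (chr10:12936248-13007438, plus strand) and Grb10 (chr11:11880498-11988683, minus strand) lie elsewhere. Counts per gene cover exons only, and RefSeq models were used for counting. Igf2 overlaps the antisense gene Igf2os, and Rian overlaps Rtl1 on the opposite strand. The strand setting of the counting is not given in the sources used here, so reads of these pairs may not be told apart.

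Of the 10 genes, 5 hold microRNA hairpins within their span. These were 1 in H19, 1 in Igf2, 2 in Meg3, 3 in Rian and 10 in Mirg, among those present in the RefSeq tables. The mature sequences of the hairpins in H19 and Igf2 are shown first, because these hosts had the highest read counts, and then the only pair in these hosts, both in Mirg, that shares a seed. Capitals mark bases 2 to 8, the seed.
miR-675-5p (H19): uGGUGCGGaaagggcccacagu
miR-675-3p (H19): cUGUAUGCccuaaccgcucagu
miR-483-5p (Igf2): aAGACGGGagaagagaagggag
miR-483-3p (Igf2): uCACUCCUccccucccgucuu
miR-496a-5p (Mirg): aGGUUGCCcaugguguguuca
miR-453 (Mirg): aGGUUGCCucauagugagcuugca
Messenger RNA libraries do not capture mature microRNAs. The hairpin gene of miR-675 had 0 reads in every library while its host H19 had up to 1018071, and that of miR-483 had 0 to 38 reads. Reads that fall on 2 genes can be set aside as ambiguous, so these counts do not measure the hairpins.

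RefSeq promoter windows of 300 bases, from 250 bases before to 50 after a transcript start, were given for 8 of the 10 genes, with 13 windows in all on GRCm38.p6. Entries for H19 and Cdkn1c were not among them. The windows of Dlk1 and Meg3, whose transcripts varied together between tumors, and of Igf2 (the last of 4) and Plagl1, which moved in opposite directions, are shown for comparison. Capitals mark 3 motifs searched on either strand. The E-box, the letters that MYC binds, was CACGTG and is held by 7.15% of the 32851 promoter windows in the table. The GC box was GGGCGG, held by 35.7%. The TATA box was TATAAA, held by 13.6%.
Dlk1, chr12:109452573-109452872, plus strand: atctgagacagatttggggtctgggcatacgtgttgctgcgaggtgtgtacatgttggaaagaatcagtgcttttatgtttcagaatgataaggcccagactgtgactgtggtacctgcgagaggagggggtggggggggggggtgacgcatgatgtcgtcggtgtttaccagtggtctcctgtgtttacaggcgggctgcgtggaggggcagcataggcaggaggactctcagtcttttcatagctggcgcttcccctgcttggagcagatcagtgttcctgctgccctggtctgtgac
Meg3, chr12:109540746-109541045, plus strand: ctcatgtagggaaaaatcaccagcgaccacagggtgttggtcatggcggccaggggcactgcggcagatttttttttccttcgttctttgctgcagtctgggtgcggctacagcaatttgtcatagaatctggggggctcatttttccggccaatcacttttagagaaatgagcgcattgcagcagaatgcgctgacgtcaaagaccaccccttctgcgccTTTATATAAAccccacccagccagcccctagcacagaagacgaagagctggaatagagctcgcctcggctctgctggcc
Igf2, chr7:142657447-142657746, minus strand: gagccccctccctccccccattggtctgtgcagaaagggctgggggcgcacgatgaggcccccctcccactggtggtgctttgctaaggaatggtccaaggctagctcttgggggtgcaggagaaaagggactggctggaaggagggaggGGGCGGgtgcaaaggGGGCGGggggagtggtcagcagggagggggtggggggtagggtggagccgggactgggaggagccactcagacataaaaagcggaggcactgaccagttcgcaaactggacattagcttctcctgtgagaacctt
Plagl1, chr10:13090582-13090881, plus strand: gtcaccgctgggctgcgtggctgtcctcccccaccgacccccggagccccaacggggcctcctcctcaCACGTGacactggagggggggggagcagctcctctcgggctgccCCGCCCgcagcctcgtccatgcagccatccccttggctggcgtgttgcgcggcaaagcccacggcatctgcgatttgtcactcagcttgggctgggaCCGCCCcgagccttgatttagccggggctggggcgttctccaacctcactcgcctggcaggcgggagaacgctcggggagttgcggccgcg
The Dlk1 window held none of the 3 motifs, and neither did those of Rian, Mirg and Peg3. In the Meg3 window 2 TATA boxes overlap shortly before the start, 1 on each strand. The Igf2 window held 2 GC boxes. The only E-box in the 13 windows was in Plagl1, beside 2 GC boxes. A match is a run of letters and was not tested as a binding site.

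Libraries held 18004977 to 66354724 reads on genes, and the sgTrp53+MYC libraries were the deepest at 54042455 or more. These 5 were deposited in a count table of their own, in which 11.1% to 14.6% of all reads were ambiguous between genes against 3.03% to 6.30% in the other table, so every comparison with sgTrp53+MYC tumors was also one between tables and these cannot be told apart. Trp53 was at 18.7 to 79.9 CPM (the read count relative to library size, with library sizes scaled by the trimmed mean of M-values) in sgTrp53+MYC tumors, below the 90.8 to 176 CPM of the other tumors, although a guide need not lower the transcript. Livers 4 and 5 stood apart for several members, and they also had more reads of the fetal liver protein Afp, with 6.35 and 1.79 CPM against 0.265 to 0.440 CPM in livers 1 to 3. The 6 hepatocyte markers were detected in every group, and all 6 were lower in each tumor group than in liver (summed 3809 to 27184 CPM against 172009 to 218868 CPM). In bulk samples, fewer cells of a type and less RNA per cell cannot be told apart. No gene of the biliary, endothelial, stellate, macrophage, lymphoid or erythroid lists was at 0 in a whole group. Their summed levels overlapped between tumor groups and liver, other than for endothelial and macrophage markers in sgTrp53+MYC tumors and erythroid markers in FGF19+MYC and sgTrp53+MYC tumors, which lay below liver. The part of other cell types in the member genes was not tested.

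Relative to liver, 9 of the 10 genes rose in tumors of all 3 groups by the edgeR fit, and Plagl1 was the exception. For Peg3 in sgTrp53+MYC tumors the rise rested on tumor 4, with a log2 fold change of 2.35 and of 0.15 without that tumor. The largest increases were of H19, Igf2 and Dlk1, by over 10 on the log2 scale in each group. With edgeR's quasi-likelihood test and Benjamini-Hochberg adjustment over the 14333 genes tested, all 10 genes passed 0.05 in Aldafermin+MYC tumors, where 70.3% of all genes tested did. FGF19+MYC tumors had 9 genes past the threshold (69.7% of all genes) and sgTrp53+MYC tumors had 10 (69.9%). Higher calls made up 9 of 10 genes in each group, where 38.4%, 36.9% and 36.9% of all genes were called higher. Because the members were chosen with earlier results known, this contrast may follow from the choice. The 1 lower call, Plagl1, was made in Aldafermin+MYC and sgTrp53+MYC tumors, where 31.9% and 33% of all genes were called lower (32.9% in FGF19+MYC, with no member). Their median log2 fold change was 7.42, 7.10 and 5.14, beside 0.13, 0.06 and 0.07 over all genes tested. The 3 comparisons share the same livers and are not independent. Groups did not overlap for 9, 9 and 5 of the 10 genes, against 58.8%, 62.5% and 56.2% of all genes.

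**Figure D1:**
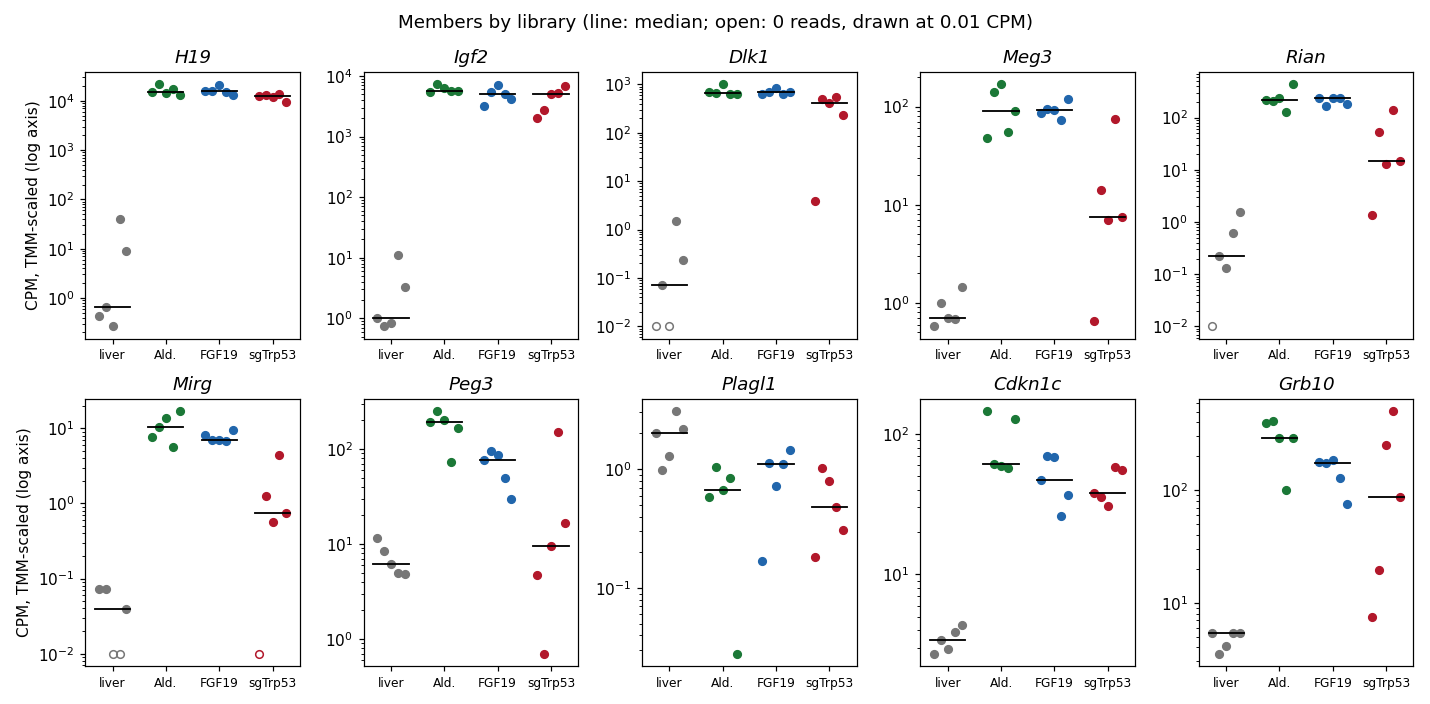
CPM (log axis) of the 10 genes in each of the 20 libraries, with Ald. for Aldafermin+MYC, FGF19 for FGF19+MYC and sgTrp53 for sgTrp53+MYC tumors; lines mark group medians and open circles libraries with 0 reads. H19, Igf2, Dlk1, Cdkn1c and Grb10 were above every liver in all 15 tumors, whereas Plagl1 lay at or below 1.44 CPM in tumors, and 1 sgTrp53+MYC tumor was near liver for Meg3, Rian and Mirg.

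H19, the maternal non-coding RNA, was among the most abundant transcripts of the tumors. Its level was 15264, 21854, 14569, 17513 and 13244 CPM in the 5 Aldafermin+MYC tumors and 15445, 15724, 20790, 15375 and 12843 CPM in the FGF19+MYC tumors. Tumors of sgTrp53+MYC had 12242, 13050, 11741, 13745 and 9556 CPM. All 15 values lay within a narrow range, and H19 had the highest or the second highest read count of all genes in every tumor, at 1.15% to 2.53% of reads. Livers 1 to 3 had 0.430, 0.660 and 0.265 CPM (18 reads at most), while livers 4 and 5 had 39.1 and 9.0 CPM (572 and 226 reads). The log2 fold change against liver was 10.71 ± 1.23 (SE, n = 5 and 5, edgeR adjusted p = 2.55e-07) in Aldafermin+MYC, 10.67 ± 1.23 (adjusted p = 2.66e-07) in FGF19+MYC and 10.26 ± 1.21 (adjusted p = 3.47e-07) in sgTrp53+MYC tumors. Without livers 4 and 5 these fold changes became 15.10, 15.06 and 14.65, and without liver 4 alone 12.60, 12.56 and 12.15.

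Igf2, the growth factor next to H19, was likewise among the most abundant tumor transcripts, with rank 3 to 59 by reads. It reached 5453, 7365, 6242, 5747 and 5610 CPM in Aldafermin+MYC tumors and 3214, 5348, 7044, 4957 and 4145 CPM in FGF19+MYC tumors. In sgTrp53+MYC tumors it was at 2037, 2767, 5086, 5179 and 6850 CPM, so that 2 of these 5 lay below every other tumor. Livers were at 1.00, 0.733, 0.839, 11.2 and 3.23 CPM, again with livers 4 and 5 highest. The log2 fold changes were 10.82 ± 0.83 (edgeR adjusted p = 1.02e-09), 10.52 ± 0.82 (adjusted p = 1.21e-09) and 10.35 ± 0.82 (adjusted p = 1.35e-09) in Aldafermin+MYC, FGF19+MYC and sgTrp53+MYC tumors, and 12.78, 12.48 and 12.30 without livers 4 and 5 (12.01, 11.71 and 11.53 without liver 4 alone). There were 1.40 to 6.01 reads of H19 per read of Igf2 in the tumors. Livers 4 and 5 had 3.49 and 2.79, within that range, and livers 1 to 3 had 0.316 to 0.900. Reads of the antisense Igf2os were 0.498% to 0.919% of those of Igf2 in tumors.

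Cdkn1c, which encodes the cell cycle inhibitor p57, lies in a neighbouring cluster of chromosome 7 and is made from the maternal copy. It was at 145, 61.0, 59.1, 57.1 and 127 CPM in Aldafermin+MYC tumors, 46.9, 69.3, 68.2, 25.9 and 36.9 CPM in FGF19+MYC tumors and 37.8, 35.9, 30.8, 58.6 and 55.9 CPM in sgTrp53+MYC tumors. Livers had 2.73 to 4.38 CPM, and no tumor overlapped with them. The increase was 4.69 ± 0.36, 3.83 ± 0.34 and 3.65 ± 0.34 on the log2 scale (edgeR adjusted p = 8.87e-10, 8.89e-09 and 1.49e-08). Its level was 12.6 to 25.8 times that of liver, a smaller factor than that of H19 or Igf2.

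Dlk1 was nearly absent from liver and high in 14 of 15 tumors. Aldafermin+MYC tumors had 678, 647, 1014, 623 and 619 CPM and FGF19+MYC tumors 634, 695, 836, 623 and 692 CPM. Among sgTrp53+MYC tumors, tumor 1 had only 3.94 CPM (239 reads), whereas tumors 2 to 5 had 502, 412, 554 and 229 CPM. Reads in liver were 0, 2, 0, 22 and 6. The log2 fold change was 11.10 ± 1.19 (edgeR adjusted p = 1.08e-07), 11.06 ± 1.19 (adjusted p = 1.13e-07) and 10.03 ± 1.16 (adjusted p = 2.59e-07), and 14.35, 14.31 and 13.28 without livers 4 and 5 (12.93, 12.89 and 11.86 without liver 4 alone). Even the lowest tumor was above the highest liver, at 1.5 CPM.

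The maternal non-coding RNAs downstream of Dlk1 rose as well, less in sgTrp53+MYC than in the other tumors. Meg3, the first of them, was at 48.4, 140, 170, 54.9 and 90.4 CPM in Aldafermin+MYC tumors and at 86.6, 95.4, 91.4, 72.6 and 121 CPM in FGF19+MYC tumors. The sgTrp53+MYC tumors had 0.659, 14.2, 6.92, 74.2 and 7.54 CPM, and livers 0.574 to 1.43 CPM. Tumor 1 of this group was within the range of liver and tumor 4 within that of the other tumors. Fold changes against liver were 6.80 ± 0.92 (edgeR adjusted p = 2.11e-06), 6.69 ± 0.91 (adjusted p = 2.47e-06) and 4.51 ± 0.84 (adjusted p = 9.23e-05) on the log2 scale, and the last was 3.02 without tumor 4.

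Rian, a host of small nucleolar RNAs, had 222, 207, 241, 131 and 441 CPM in Aldafermin+MYC tumors and 236, 169, 237, 235 and 185 CPM in FGF19+MYC tumors. Its values in sgTrp53+MYC tumors were 1.38, 52.3, 12.7, 140 and 14.6 CPM, in the same order of tumors as those of Meg3. Livers had 0 to 1.55 CPM (39 reads at most). The log2 fold changes were 8.87 ± 1.09 (edgeR adjusted p = 6.59e-07), 8.64 ± 1.08 (adjusted p = 8.41e-07) and 6.38 ± 1.00 (adjusted p = 1.32e-05), and 10.78, 10.55 and 8.29 without livers 4 and 5. They were 10.03, 9.80 and 7.54 without liver 5 alone, and in sgTrp53+MYC tumors 5.25 without tumor 4.

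Mirg, the host of a microRNA cluster, was lower in CPM but followed the same pattern. Aldafermin+MYC tumors had 7.60, 10.4, 13.8, 5.61 and 16.9 CPM, FGF19+MYC tumors 8.04, 6.92, 7.0, 6.72 and 9.42 CPM, and sgTrp53+MYC tumors 0, 1.26, 0.565, 4.41 and 0.737 CPM. Only 4 reads fell on Mirg in the 5 livers together. As ratios of summed reads per scaled library size, with exact 95% intervals for counting error only, the tumors were 286 times (112 to 1052), 196 times (76.4 to 722) and 37.0 times (14.4 to 136) above liver. The edgeR test gave adjusted p = 2.32e-06, 4.89e-06 and 0.000333. Of the 511 reads of Mirg in sgTrp53+MYC tumors, 324 were from tumor 4, and the edgeR log2 fold change of 5.08 in this group was 3.96 without it.

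**Figure D2:**
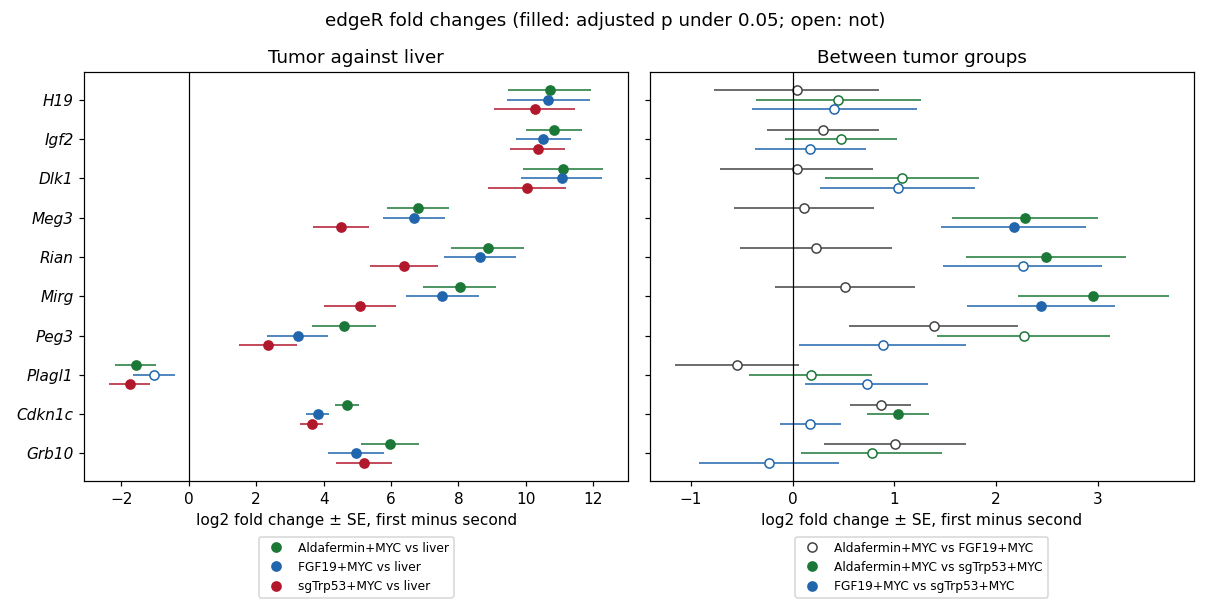
Log2 fold changes with their standard errors from edgeR for the 10 genes, in tumors against liver (left) and between tumor groups (right); filled points passed an adjusted p of 0.05 and open points did not. Against liver the 3 colors lie close together for H19 and Igf2, and the sgTrp53+MYC points lie to the left for Meg3, Rian, Mirg and Peg3.

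Peg3, a paternal zinc finger protein, rose in the hormone-driven tumors, while in sgTrp53+MYC tumors its rise rested on 1 tumor. Aldafermin+MYC tumors had 191, 249.1, 202, 72.4 and 164 CPM and FGF19+MYC tumors 76.5, 95, 85.6, 49.5 and 29.9 CPM, against 4.86 to 11.5 CPM in liver. The sgTrp53+MYC values were 4.74, 0.700, 9.55, 151 and 16.7 CPM, with 2 tumors below every liver and 1 within their range. The log2 fold changes were 4.61 ± 0.95 (edgeR adjusted p = 0.000266), 3.23 ± 0.90 (adjusted p = 0.00352) and 2.35 ± 0.87 (adjusted p = 0.0216). Without tumor 4 the last was 0.15 (adjusted p = 0.827).

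Grb10, an adaptor that dampens insulin and IGF signaling, was above every liver in all tumors. It was at 396, 413, 292, 101 and 291 CPM in Aldafermin+MYC tumors and 179, 174, 186, 128 and 75.1 CPM in FGF19+MYC tumors. In sgTrp53+MYC tumors it spanned 7.40, 19.6, 253, 503 and 87.7 CPM, and livers had 3.52 to 5.39 CPM. The increase was 5.97 ± 0.86, 4.96 ± 0.82 and 5.19 ± 0.83 on the log2 scale (edgeR adjusted p = 4.97e-06, 2.61e-05 and 1.68e-05), and the last was 4.28 without tumor 4.

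Plagl1, a zinc finger transcription factor that acts on the other genes of this imprinted network, was the only member below liver. It had few reads, 1 to 73 per library. Levels were 0.583, 1.04, 0.667, 0.846 and 0.0281 CPM in Aldafermin+MYC, 0.167, 1.13, 0.718, 1.12 and 1.44 CPM in FGF19+MYC, 0.181, 1.02, 0.796, 0.477 and 0.307 CPM in sgTrp53+MYC tumors, and 0.990 to 3.07 CPM in liver. The groups overlapped in each comparison. The log2 fold change was -1.58 ± 0.62 (edgeR adjusted p = 0.0287) in Aldafermin+MYC and -1.76 ± 0.61 (adjusted p = 0.0154) in sgTrp53+MYC tumors, and in FGF19+MYC tumors it was -1.03 ± 0.61 (adjusted p = 0.138). The call in Aldafermin+MYC tumors was lost without tumor 1 (adjusted p = 0.0519) or without liver 4 (adjusted p = 0.0705). Without livers 4 and 5 none of the 3 passed (adjusted p = 0.155, 0.0996 and 0.453 for Aldafermin+MYC, sgTrp53+MYC and FGF19+MYC). Under scaling by total counts alone, which shifted the median of all genes to 0.97, 0.95 and 0.91 in these comparisons, it was at -0.70, -0.84 and -0.15, lower than that median but past the threshold in none (adjusted p = 0.319, 0.228 and 0.832).

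Per kb of exon in the GENCODE models, H19 was the highest of the 10 genes in every tumor group, at 5790 ± 1185 CPM per kb (SD, n = 5) in Aldafermin+MYC tumors. Igf2 came next at 987 ± 126 and Dlk1 after it at 119 ± 27.9 CPM per kb in the same group. Cdkn1c and Grb10 followed in each tumor group, and Plagl1 was last. Meg3, Rian and Mirg were at 5.22 ± 2.76, 7.77 ± 3.62 and 1.12 ± 0.471 CPM per kb there, with Meg3 and Rian overlapping. The reads were counted on RefSeq exons, so these lengths may not match the counted ones. The order of genes per kb depends on the lengths used.

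Aldafermin and FGF19, which differ in a short N-terminal stretch, were then compared directly in tumors of the same MYC background. No member differed by the edgeR test after adjustment. The edgeR fit called 0 of 10 genes and 0% of all 14333, of which 1048 had an unadjusted p below 0.05, while DESeq2 called 96. Of the members 1, Cdkn1c, had an unadjusted p below 0.05. It was higher with Aldafermin by 0.86 ± 0.30 (95% interval 0.23 to 1.5, edgeR adjusted p = 0.440), and the groups overlapped. For H19 the difference was 0.04 (-1.66 to 1.74), for Igf2 0.30 (-0.84 to 1.44) and for Dlk1 0.04 (-1.53 to 1.61) on the log2 scale, with adjusted p from 0.986 to 0.999. Peg3 and Grb10 had the widest gaps in favor of Aldafermin, at 1.39 (-0.35 to 3.12) and 1.01 (-0.45 to 2.46), with edgeR adjusted p = 0.797 and 0.864. The remaining log2 differences were 0.11 (-1.32 to 1.54) for Meg3, 0.23 (-1.33 to 1.78) for Rian, 0.51 (-0.93 to 1.95) for Mirg and -0.55 (-1.83 to 0.73) for Plagl1. These intervals leave room for differences of several fold, so a like response was not shown. They come from a fit with 1 estimate of spread per gene over all 4 groups. In liver, Aldafermin+MYC and FGF19+MYC tumors the SD of log2 CPM was 3.03, 0.28 and 0.25 for H19. For Dlk1 it was 2.05, 0.30 and 0.17. In sgTrp53+MYC, Aldafermin+MYC and FGF19+MYC tumors it was 2.78, 0.69 and 0.69 for Peg3 and 2.52, 0.82 and 0.55 for Grb10. The width for these genes thus includes scatter from outside the 2 groups compared. An exact permutation test of log2 CPM, not adjusted over genes, gave p = 0.0317 for Peg3 and 0.0873 for Cdkn1c and for Grb10. By the same permutation test every other member had p = 0.127 or more. No member was free of overlap between these 2 groups, where 1.46% of all genes were.

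Against sgTrp53+MYC tumors, the non-coding RNAs Meg3 and Mirg were higher in both other groups. Meg3, Rian, Mirg and Cdkn1c were higher in Aldafermin+MYC tumors, 4 of 10 genes where 17.7% of all genes were called and 10.2% were called higher (7.53% lower, with no member). Meg3 and Mirg were higher in FGF19+MYC tumors, 2 of 10 genes where 15.8% of all genes were called, 7.97% higher and 7.78% lower, a share of members near that of all genes. Mirg differed by 2.96 ± 0.74 (edgeR adjusted p = 0.00993) and 2.44 ± 0.73 (adjusted p = 0.0280), Meg3 by 2.28 ± 0.72 (adjusted p = 0.0333) and 2.17 ± 0.71 (adjusted p = 0.0445), and Rian by 2.49 ± 0.79 (adjusted p = 0.0349) and 2.26 ± 0.78 (adjusted p = 0.0546) on the log2 scale. Cdkn1c was 1.04 ± 0.30 higher in Aldafermin+MYC tumors (adjusted p = 0.0241) and 0.17 ± 0.30 higher in FGF19+MYC tumors (adjusted p = 0.744). When only the 2 groups compared were fitted, none of these calls held (adjusted p = 0.0812 or more for Mirg, 0.13 or more for Meg3, 0.112 or more for Rian and 0.0729 for Cdkn1c). Leaving out 1 library moved the number of genes called to between 1 (without sgTrp53+MYC tumor 2 or 3) and 5 (without tumor 4) for Aldafermin+MYC. For FGF19+MYC it moved to between 0 (without sgTrp53+MYC tumor 2, 3 or 5 or FGF19+MYC tumor 5) and 4 (without tumor 4). Without tumor 4, the highest of the sgTrp53+MYC group in these RNAs, Meg3, Rian, Mirg and Peg3 were each past the threshold against both other groups (Meg3 by 3.78 and 3.67, Peg3 by 4.47 and 3.08 on the log2 scale).

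Dlk1 itself did not pass the test in these comparisons. Its log2 difference was 1.07 ± 0.76 from Aldafermin+MYC (edgeR adjusted p = 0.353) and 1.03 ± 0.76 from FGF19+MYC tumors (adjusted p = 0.383), although all 5 sgTrp53+MYC tumors were below all 10 others. Groups did not overlap for Dlk1 and Mirg in the first comparison, 2 of 10 genes against 9.75% of all genes, and for Dlk1, Rian and Mirg in the second, 3 of 10 against 10.9%. H19 and Igf2 differed by 0.45 ± 0.81 and 0.47 ± 0.55 from Aldafermin+MYC tumors and by 0.41 ± 0.81 and 0.17 ± 0.55 from FGF19+MYC tumors, and neither passed (edgeR adjusted p from 0.592 to 0.868). The SE of H19 includes liver scatter through the shared spread. Fitted with only the 2 groups compared, H19 had edgeR adjusted p = 0.269 and 0.259. An exact permutation test of log2 CPM, not adjusted over genes, gave p = 0.0159 and 0.0238 for H19. It gave 0.00794 in both for Dlk1, and 0.119 and 0.516 for Igf2. Set against the mean of both hormone-driven groups, a contrast added after the data were seen, Meg3, Rian and Mirg were called (2.23 ± 0.66, 2.37 ± 0.73 and 2.70 ± 0.69, edgeR adjusted p = 0.0203, 0.0238 and 0.00821), 3 of 10 genes where 23.7% of all genes were, again a share near that of all genes.

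For Dlk1, Meg3, Rian, Mirg, Peg3 and Grb10, the sgTrp53+MYC tumors lay farther apart from each other than the other tumors did. Between their lowest and highest tumor, Dlk1 spanned 141-fold, Meg3 113-fold, Rian 101-fold, Peg3 215-fold and Grb10 68.0-fold, while in FGF19+MYC tumors these genes spanned 1.34, 1.67, 1.40, 3.17 and 2.47-fold and in Aldafermin+MYC tumors 1.64, 3.52, 3.38, 3.44 and 4.09-fold. The SD of log2 CPM in sgTrp53+MYC tumors was larger than that of 99.8% of all tested genes for Dlk1, 99.7% for Peg3, 99.4% for both Rian and Grb10, 99.3% for Meg3 and 99.2% for Mirg. For Dlk1, Peg3, Rian, Grb10, Meg3 and Mirg in that order, the shares in FGF19+MYC tumors were 15.9%, 84.1%, 30.7%, 75.9%, 38.1% and 23.5%, and in Aldafermin+MYC tumors 33.2%, 77.6%, 74.1%, 83.6%, 82.7% and 74.6%. For Dlk1 the wide spread rested on tumor 1, at 3.94 CPM against 229 to 554 CPM in tumors 2 to 5. H19, Cdkn1c and Plagl1 did not share the wider spread of the sgTrp53+MYC tumors. The SD of log2 CPM in sgTrp53+MYC, Aldafermin+MYC and FGF19+MYC tumors was 0.20, 0.28 and 0.25 for H19, 0.41, 0.66 and 0.60 for Cdkn1c and 0.90, 1.53 and 1.11 for Plagl1. Igf2 lay between, at 0.72, 0.17 and 0.42. It was widest in sgTrp53+MYC tumors, where its SD was larger than that of 77.7% of all tested genes. Tumor 1, the lowest for all 4 chromosome 12 genes, had the highest summed hepatocyte markers of its group (10290 CPM against 3809 to 6662 CPM) and the lowest summed stellate markers (193 CPM against 331 to 402 CPM). Its summed endothelial markers were also the lowest (46.3 CPM against 55.1 to 129 CPM). Single markers of these lists went the other way. In tumor 1 the hepatocyte marker Hnf4a was the lowest of the group (269 CPM against 354 to 591 CPM). The stellate markers Dcn (40.4 CPM against 11.4 to 14.6 CPM) and Lrat (2.57 CPM against 0.614 to 1.81 CPM) were the highest there. Tumor 4, the highest for the chromosome 12 genes, had the lowest biliary markers (3.44 CPM against 7.83 to 779 CPM). The part of these markers in the result was not tested.

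**Figure D3:**
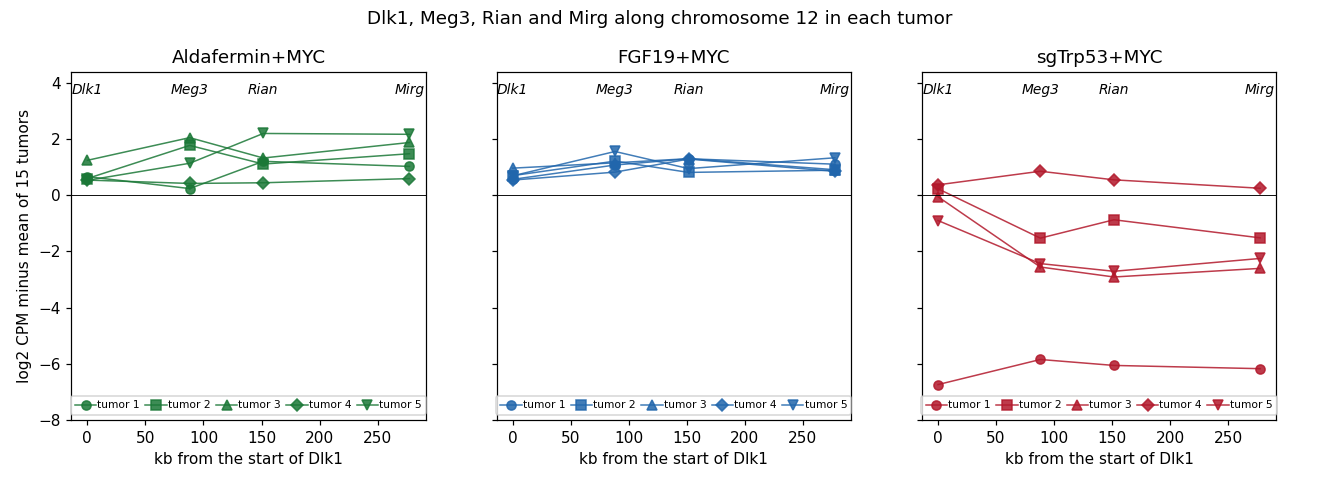
Log2 CPM of Dlk1, Meg3, Rian and Mirg in each tumor, minus the mean of the gene over all 15 tumors, by distance in kb of the gene's start from that of Dlk1; each line is 1 tumor. Aldafermin+MYC and FGF19+MYC lines all lie above 0, and in the sgTrp53+MYC group tumor 1 lies between -6.74 and -5.85 at all 4 genes while tumor 4 lies above it.

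Among the chromosome 12 genes, 3 pairs varied together between tumors of a kind by Pearson's r. Log2 CPM deviations from the group mean were correlated over the 15 tumors for all 45 pairs of members, with permutation within groups and adjustment over the pairs. Pearson's r passed for Rian and Mirg (r = 0.969, permutation p = 0.00037, adjusted p = 0.0167), Meg3 and Mirg (r = 0.964, permutation p = 0.00109, adjusted p = 0.0245) and Dlk1 and Meg3 (r = 0.840, permutation p = 0.00237, adjusted p = 0.0356). Spearman's rho on ranks within groups passed for none, being 0.667, 0.733 and 0.600 for these 3 pairs (adjusted permutation p = 0.232, 0.195 and 0.294). Without the 2 tumors farthest from the median of the first gene, r was 0.893, 0.897 and 0.590. Meg3 and Rian (r = 0.915), Dlk1 and Rian (r = 0.845) and Dlk1 and Mirg (r = 0.888) did not pass. Their adjusted permutation p was 0.0935, 0.125 and 0.125, and rho was 0.267, 0.333 and 0.333. The relation rests largely on the sgTrp53+MYC tumors. Leaving out any 1 of these 5, which also leaves fewer permutations, left no pair past the threshold, although r stayed at 0.919 or above for Rian and Mirg and at 0.915 or above for Meg3 and Mirg. For Dlk1 and Meg3 it fell to 0.629 without tumor 1. Within a group there are only 5 tumors, too few for a correlation of their own.

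The neighbours H19 and Igf2 did not show this (r = 0.113, r from -0.09 to 0.42 when 1 tumor was left out). Peg3 and Grb10, on different chromosomes, had r = 0.789 (permutation p = 0.0316, adjusted p = 0.197) and rho = 0.800 (adjusted permutation p = 0.13).

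**Figure D4:**
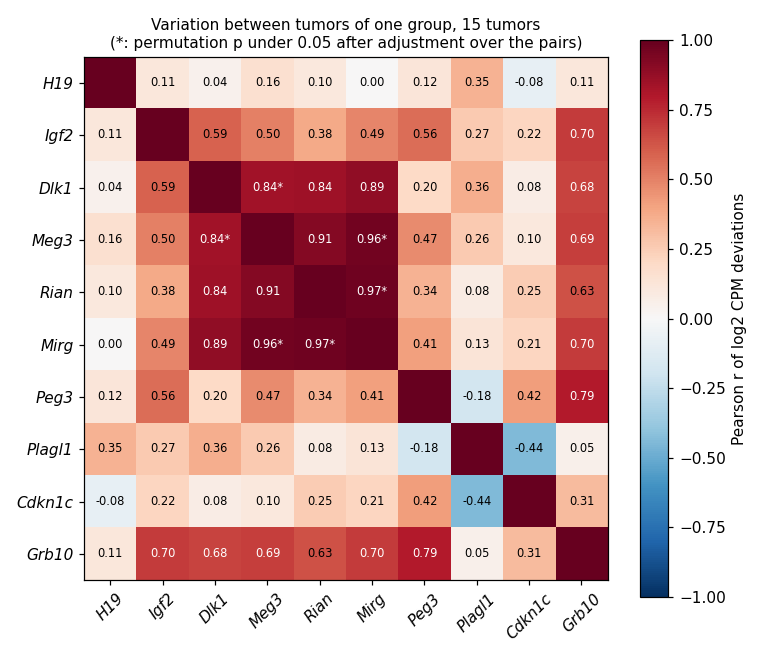
Pearson's r between members of log2 CPM deviations from the group mean over 15 tumors; color runs from -1 (blue) to 1 (red) and asterisks mark adjusted permutation p below 0.05. The block of Dlk1, Meg3, Rian and Mirg holds r from 0.840 to 0.969, with asterisks on 3 pairs, whereas H19 is at 0.347 or below with every other gene.

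Among genes outside the list, those whose log2 CPM over the 15 tumors was most like a member's are given as a description. For Dlk1 these were Maea (r = 0.953), E2f2 (0.949) and Cadm1 (0.928), and for Meg3 they were Dapp1 (0.953), AF357359 (0.938) and Gprc5c (0.938). For Igf2 they were Usp40 (0.931), Sfmbt1 (0.902) and Rab11fip4 (0.901), and for H19 Kdm8 (0.855), Gdf11 (0.840) and Ralgps2 (0.833). The 15 tumors include the 3 groups, so group differences enter these values.

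A list of 55 other imprinted genes was set beside the members. Members and list were chosen with earlier results of these data known, so a contrast between them may follow from the choice. Of the 33 with enough reads, 11 rose and 13 fell in Aldafermin+MYC tumors, 11 rose and 12 fell in FGF19+MYC tumors, and 11 rose and 12 fell in sgTrp53+MYC tumors, with median log2 fold changes of 0.04, -0.02 and -0.21. Over all genes tested, 38.4%, 36.9% and 36.9% rose and 31.9%, 32.9% and 33% fell. Rtl1, a retrotransposon-derived gene opposite Rian, had no read in any liver, and by a floor of 3 reads per library it was at least 62.8-fold higher in Aldafermin+MYC, 54.3-fold in FGF19+MYC and 5.02-fold in sgTrp53+MYC tumors. Its reads in sgTrp53+MYC tumors 1 to 5 were 0, 68, 10, 210 and 0. Usp29, next to Peg3, had 1.19 to 7.69 CPM in Aldafermin+MYC tumors and 2.49 CPM in sgTrp53+MYC tumor 4 against 0 to 0.292 CPM in the other 4 of that group. Phlda2, a maternal inhibitor of placental growth, rose by 9.17, 9.13 and 7.70 and Peg10, a paternal retrotransposon-derived gene, by 8.53, 8.79 and 7.5 on the log2 scale (edgeR adjusted p of 2.85e-09 or below). Ppp1r9a rose by 2.09, 2.30 and 2.56 (edgeR adjusted p of 1.18e-06 or below).

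The imprinted genes that fell most were Dcn, a matrix proteoglycan, at -2.83, -3.03 and -3.33, Zrsr1 at -2.94, -2.86 and -2.79, Slc22a18 at -2.29, -2.50 and -3.49, the amino acid transporter Slc38a4 at -2.42, -2.65 and -2.61, and Peg13 at -2.15, -2.25 and -2.47 on the log2 scale (edgeR adjusted p of 3.02e-05 or below). Dcn is also a marker of stellate cells and fibroblasts. Between tumor groups, 12 of these 33 genes were called for Aldafermin+MYC against sgTrp53+MYC, 10 of them higher, and 11 for FGF19+MYC, 9 of them higher. Over all genes 17.7% and 15.8% were called, 10.2% and 7.97% higher. Rtl1 was higher by 3.64 and 3.42 (adjusted p = 0.0310 and 0.0421), Usp29 by 3.32 in the first (adjusted p = 0.0261) and Asb4 by 2.34 in the first (adjusted p = 0.0231), where tumor 2 of Aldafermin+MYC at 8.04 CPM stood above all others. No gene of this list was called between Aldafermin+MYC and FGF19+MYC tumors.

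Genes known to act on fetal liver genes, together with the fetal liver products Afp and Gpc3, were a further list. Of 14 tested, 8 rose and 4 fell in Aldafermin+MYC, 9 rose and 4 fell in FGF19+MYC, and 9 rose and 2 fell in sgTrp53+MYC tumors, where 38.4%, 36.9% and 36.9% of all genes rose and 31.9%, 32.9% and 33% fell. Lin28b and Igf2bp1, RNA-binding proteins of fetal tissue, had no read in any liver. Lin28b was at least 79.1, 26.0 and 54.8-fold higher in the 3 tumor groups and Igf2bp1 at least 30.2 and 13.3-fold higher in Aldafermin+MYC and FGF19+MYC tumors. In sgTrp53+MYC tumors 1 to 5 Igf2bp1 was at 0, 0.112, 0, 1.47 and 0 CPM. Igf2bp3, which binds Igf2 transcripts, rose by 8.43, 8.18 and 8.79, Afp by 10.83, 10.58 and 8.26, and the fetal surface proteoglycan Gpc3 by 7.61, 7.85 and 6.72 on the log2 scale (edgeR adjusted p of 3.91e-08 or below). Zbtb20 and Zhx2, which were not among those named by size of change, went the other way. Zbtb20 was at 38.2 to 66.1 CPM in liver and 1.51 to 10.9 CPM in the tumors, and Zhx2 at 24.2 to 28.2 CPM and 7.46 to 13.9 CPM. Hmga2 reached 56.7 CPM in sgTrp53+MYC tumor 2 and 0.0307 to 0.272 CPM in the other 4 of that group. The summed biliary and progenitor markers of that tumor 2 were at 779 CPM, against 3.44 to 41.2 CPM in the other 4, and their part in this value was not tested.

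Of 14 genes of the wider IGF axis, 9, 8 and 9 fell and 3, 2 and 1 rose in Aldafermin+MYC, FGF19+MYC and sgTrp53+MYC tumors, where 31.9%, 32.9% and 33% of all genes fell. Igf1, the growth factor of adult liver, changed by -4.45, -4.93 and -5.30 and Igfals, its partner in serum, by -4.71, -5.23 and -5.51 on the log2 scale (edgeR adjusted p of 1.66e-06 or below). Igfbp2 changed by -5.50, -3.85 and -1.73 (adjusted p = 7.03e-06, 0.000157 and 0.0318) and the insulin receptor substrate Irs1 by -2.19, -1.52 and -1.63 (adjusted p of 3.07e-05 or below). Igfbp1 rose by 1.92 and 2.2 in Aldafermin+MYC and FGF19+MYC tumors (adjusted p = 0.0048 and 0.00191).

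Maintenance of methylation is carried out by Dnmt1 and its partner Uhrf1, which are also active in dividing cells. The list they belong to covers imprint maintenance and DNA methylation more widely, with Ctcf, Dnmt3a, Dnmt3b and the Tet genes among its members. Of its 10 tested genes, 8, 7 and 6 rose and 1, 1 and 0 fell in the 3 tumor groups. Over all genes tested 38.4%, 36.9% and 36.9% rose. Uhrf1 rose by 6.68, 6.59 and 6.46, Dnmt1 by 2.96, 3.07 and 2.95, Dnmt3b by 3.76, 3.40 and 4.36 and Tet1 by 3.25, 3.54 and 3.36 on the log2 scale (edgeR adjusted p of 6.05e-07 or below). Methylation itself was not measured. Of 4 relatives of Cdkn1c and Grb10, the p53 target Cdkn1a rose by 3.93, 4.58 and 1.96 (adjusted p = 1.40e-06, 2.80e-07 and 0.00118), with 18.8 to 32.8 CPM in sgTrp53+MYC tumors against 47.3 to 164 CPM in the other tumors.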

How the data were processed

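Messenger RNA libraries were prepared from 15 tumors and 5 livers. According to the methods, the labels and the submitters' processing notes, the authors demultiplexed with bcl2fastq 2.20.0.422, aligned with HISAT2 to mm39 and counted with htseq-count on RefSeq genes. The deposited values are raw counts per gene, in 2 tables. The 5 summary lines were left out of library sizes.

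Groups came from the labels. The study gives all replicates as biological ones and the tumors as taken from different mice. Counts were fitted in R 4.3.3 with edgeR 4.0.16 (glmQLFit, glmQLFTest, TMM) over all 20 libraries, on the 14333 genes that reached 1 CPM in 5 or more libraries. DESeq2 1.42.0, other scalings, filters and samples were alternatives. Correlations used log2 CPM with a prior count of 2 and 100000 two-sided permutations. The fitting was tested on simulated data. All 10 members were named, and genes of other lists mostly by size of change. The members and lists were chosen with earlier results of these data known. Confidence intervals are at 95% and cover counting error only where they are for reads.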

Additional observations from a re-analysis of the deposited data

Results flagged for a closer look

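In 7 of 40 groups of 5 values (10 genes in 4 groups), the highest library stood farther from the next than Dixon's 95% critical value (0.71 of the range) allows, where chance gives about 1 in 20, or 2. Liver 4 was far above the other livers for H19 (39.1 CPM), Igf2 (11.2 CPM) and Dlk1 (1.5 CPM). Tumor 4 of sgTrp53+MYC was far above its group for Meg3 (74.2 CPM), Mirg (4.41 CPM) and Peg3 (151 CPM). Tumor 3 of Aldafermin+MYC was far above its group for Dlk1 (1014 CPM).

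The change from liver differed between tumor groups by the edgeR contrast of the tumors themselves. Between Aldafermin+MYC and sgTrp53+MYC tumors it was larger in the former by 2.28 for Meg3, 2.49 for Rian, 2.96 for Mirg and 1.04 for Cdkn1c on the log2 scale. Between FGF19+MYC and sgTrp53+MYC tumors it was larger in the former by 2.17 for Meg3 and 2.44 for Mirg. These differences are also differences between count tables, and the 2 cannot be told apart.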

How the results depend on the processing

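Of 1151 values of single genes under alternatives, 1073 kept direction and side of the threshold, 50 lost a call, 14 gained one and 14 turned in sign. The turned signs were all in comparisons between tumor groups. Against liver, 9 or 10 genes (Aldafermin+MYC, sgTrp53+MYC) and 9 genes (FGF19+MYC) were called whichever library was left out. Against sgTrp53+MYC, leaving out 1 library gave 1 to 5 called genes for Aldafermin+MYC (4 as reported) and 0 to 4 for FGF19+MYC (2 as reported). A fit of only the 2 groups called 0 in both, without a filter on low counts 1 was called for FGF19+MYC, and without sgTrp53+MYC tumors 1 and 4 there were 4 for FGF19+MYC and 5 for Aldafermin+MYC, an alternative chosen after seeing the data, as were leaving out livers 4 and 5 and the pooled contrast. Correlated pairs numbered 0 to 3. The cause was not tested.

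With 1 library left out, the log2 difference between Aldafermin+MYC and FGF19+MYC ranged from -0.081 to 0.15 for H19, -0.12 to 0.12 for Dlk1, -0.16 to 0.29 for Meg3 and -0.10 to 0.39 for Rian. That of Plagl1 between Aldafermin+MYC and sgTrp53+MYC ranged from -0.082 to 0.51. Between FGF19+MYC and sgTrp53+MYC it ranged from -0.011 to 0.39 for Igf2 and -0.54 to 0.69 for Grb10. Without sgTrp53+MYC tumors 1 and 4 Plagl1 was at -0.17 and Grb10 at 0.30, and in the pooled contrast Grb10 was at 0.27. None of the turned values was called.

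Replicate numbers are shared between groups but the mice differ, and deviations of same-numbered samples correlated from -0.33 to 0.33, so they share only a number. With a replicate block Grb10 was at 0.11 between FGF19+MYC and sgTrp53+MYC, and Peg3 in sgTrp53+MYC against liver was at 1.59 (edgeR adjusted p = 0.185). The block gave 3 called genes against sgTrp53+MYC in both comparisons, losing Cdkn1c for Aldafermin+MYC (adjusted p = 0.0514) and gaining Rian for FGF19+MYC (adjusted p = 0.0394).

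Over all genes, Aldafermin+MYC against FGF19+MYC gave 0 calls by edgeR and 96 by DESeq2, 59 by the likelihood ratio test, 2 with RLE size factors, and 6 or 29 without Aldafermin+MYC tumor 2 or 4. Fits of 2 groups gave 1076 calls in place of 2534 and 1342 in place of 2258 against sgTrp53+MYC, and the pooled contrast 3399. With total counts for scaling, higher and lower calls against liver were 8618 and 2405 (5506 and 4577 as reported), 8375 and 2453 (5282 and 4709), and 8534 and 2423 (5286 and 4733). Depth limits Plagl1 and, in liver, Mirg.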
